A study of Homo sapiens with 6 samples.

Results

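The 9 genes described here are NFE2L2, which encodes the transcription factor NRF2, KEAP1, which encodes its inhibitor, and 7 of its antioxidant target genes. The targets are NQO1, HMOX1, GCLC, GCLM, TXNRD1, SRXN1 and SLC7A11. They were taken by name from 60554 genes with a row in every library, and all 9 were among the 18683 genes with enough reads to be tested. RNA was sequenced from Daoy cells, an established human medulloblastoma line, after lentiviral transduction (multiplicity of infection 15, 72 hr) within 4 days of culture in medium with 10% serum. In the ZFmut group (3 libraries) the virus carried ZBTB7B with the substitution R363L in its zinc-finger domain, and in the WT group (3 libraries) it carried wild-type ZBTB7B. ZBTB7B is a zinc-finger transcription factor, also called ThPOK. All 6 libraries therefore come from transduced cells that also keep their own ZBTB7B gene, and cells without either transgene were not analysed here. The comparison asks which transcripts differ when the zinc-finger domain carries this substitution. The labels do not state whether replicates are separate cultures; p-values then cover only the spread among these 6 libraries, and that spread may be technical.

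NRF2 is held at a low level in unstressed cells because KEAP1 binds it and presents it to a CUL3 ubiquitin ligase for degradation. Oxidants and electrophiles modify cysteines of KEAP1, NRF2 then escapes degradation, pairs with a small MAF protein and binds antioxidant response elements near its target genes. The control is thus largely on the protein, which transcript counts do not measure, and the targets are commonly read as its output. These targets make and use glutathione, reduce thioredoxin and sulfiredoxin substrates, detoxify quinones and degrade haem.

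Reads assigned to genes numbered between 22236214 and 102730428 per library, a 4.62-fold range. Levels are given as CPM, read counts divided by the TMM-scaled library size. ZBTB7B itself averaged 576 ± 43.8 CPM in ZFmut libraries and 904 ± 44.3 CPM in WT libraries (SD, n = 3 each), a log2 change of -0.65 ± 0.06 (SE, edgeR adjusted p = 1.39e-06). Transgene and endogenous reads are not separated in these counts, so the groups differ in the amount of ZBTB7B transcript as well as in the substitution, and the effects of these cannot be told apart. Of 10 neural progenitor and medulloblastoma markers 8 were tested, and their summed level was 1020 to 1050 CPM in ZFmut libraries and 942 to 988 CPM in WT libraries. The intermediate filament gene VIM made up most of this sum and was not called (0.00), whereas the progenitor genes SOX2 (log2 0.84, 35.7 to 41.3 CPM with ZFmut and 19.2 to 23.0 CPM with WT) and NES (log2 0.45, 145 to 171 CPM with ZFmut and 103 to 129 CPM with WT) were higher. The other tested markers, SOX9 (-0.02), PAX6 (0.10), ZIC1 (0.11), GLI2 (0.19) and OTX2 (-0.02), were not called. ATOH1 and MYCN, both known in subgroups of the tumour, were at or near 0. The summed level of 4 leukocyte markers was 0.0446 to 0.255 CPM in ZFmut libraries and 0.211 to 0.348 CPM in WT libraries. For 3 endothelial markers it was 2.45 to 2.69 CPM with ZFmut and 1.17 to 1.52 CPM with WT. Of these PECAM1 was higher (log2 2.10), VWF was not called (0.37) and CDH5 had too few reads to be tested. For 3 epithelial markers the summed level was 424 to 519 CPM with ZFmut and 247 to 284 CPM with WT. That last sum is nearly all KRT8, which was higher (log2 0.81), whereas CDH1 was lower, at 0.422 to 0.501 CPM with ZFmut and 2.47 to 3.28 CPM with WT (log2 -2.69), and EPCAM was not called (-0.12). The part of these marker shifts in the results below was not tested.

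The core of the antioxidant response element was searched as TGACNNNGC, or GCNNNGTCA on the other strand, in windows of 250 bases before to 50 bases after each annotated start (RefSeq, GRCh38.p14). It was found in 4687 of all 35116 windows (13.3%). Of the 9 genes 7 had an entry, with 10 windows in all, and 4 of these held a match. Those were 1 of the KEAP1 windows, the GCLM window and both TXNRD1 windows. HMOX1 and SLC7A11 had no entry. A window each of KEAP1, GCLM and TXNRD1, the genes in which a match was found, is printed here 5′ to 3′ on the gene's strand, with the matches in capitals. Whether a match bears on the transcript differences between the groups was not tested. The KEAP1 window is chr19:10502722-10503021 on the minus strand, the GCLM window chr1:93909381-93909680 on the minus strand and the TXNRD1 window chr12:104286782-104287081 on the plus strand.
KEAP1: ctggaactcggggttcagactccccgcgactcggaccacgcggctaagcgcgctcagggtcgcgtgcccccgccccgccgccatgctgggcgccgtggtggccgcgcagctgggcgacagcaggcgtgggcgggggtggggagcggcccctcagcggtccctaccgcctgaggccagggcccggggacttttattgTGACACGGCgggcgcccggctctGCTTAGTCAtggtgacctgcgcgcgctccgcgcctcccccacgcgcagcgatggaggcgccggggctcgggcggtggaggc
GCLM: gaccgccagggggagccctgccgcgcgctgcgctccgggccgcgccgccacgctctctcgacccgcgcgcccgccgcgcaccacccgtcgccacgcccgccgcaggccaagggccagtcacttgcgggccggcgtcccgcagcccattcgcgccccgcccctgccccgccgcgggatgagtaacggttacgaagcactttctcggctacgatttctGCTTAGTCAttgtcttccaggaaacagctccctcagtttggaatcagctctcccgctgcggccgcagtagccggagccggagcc
TXNRD1: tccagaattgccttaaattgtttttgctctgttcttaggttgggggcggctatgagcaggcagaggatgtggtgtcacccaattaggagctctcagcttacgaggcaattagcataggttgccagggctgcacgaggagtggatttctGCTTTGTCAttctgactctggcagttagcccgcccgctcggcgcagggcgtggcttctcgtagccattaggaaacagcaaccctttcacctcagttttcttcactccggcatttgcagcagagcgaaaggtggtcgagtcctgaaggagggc
KEAP1 and GCLM held the identical run GCTTAGTCA, 31 bases before the start in KEAP1 and 34 bases before it in GCLM. KEAP1 held a further match, 54 bases before the start. In the TXNRD1 window printed here the match was GCTTTGTCA, 102 bases before the start. The other TXNRD1 window, chr12:104215529-104215828, held TGACTTCGC and GCTCCGTCA, 99 and 8 bases before its start. The windows of NFE2L2, NQO1, GCLC and SRXN1 held no match to these letters. A match describes the sequence only, and the lack of one says nothing about elements outside these windows.

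NFE2L2, NQO1, TXNRD1 and SLC7A11 transcripts fell in ZFmut libraries, KEAP1 transcripts rose, and GCLC, GCLM, HMOX1 and SRXN1 did not pass the test. The falls were 1.41-fold for NFE2L2, 1.33-fold for SLC7A11, 1.21-fold for TXNRD1 and 1.19-fold for NQO1, and the KEAP1 rise was 1.13-fold. A gene was called where the quasi-likelihood test of edgeR gave a p under 0.05 after Benjamini-Hochberg adjustment over all tested genes. By that rule 5 of the 9 genes were called, against 35.6% of all tested genes. In the lower direction there were 4 of 9, against 18.4% of all genes, and in the higher direction 1 of 9, against 17.2%. The median log2 difference (ZFmut minus WT) was -0.15 over the 9 genes and 0.00 over all tested genes. In bulk RNA, less transcript per cell and fewer cells with the transcript cannot be told apart.

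**Figure D1:**
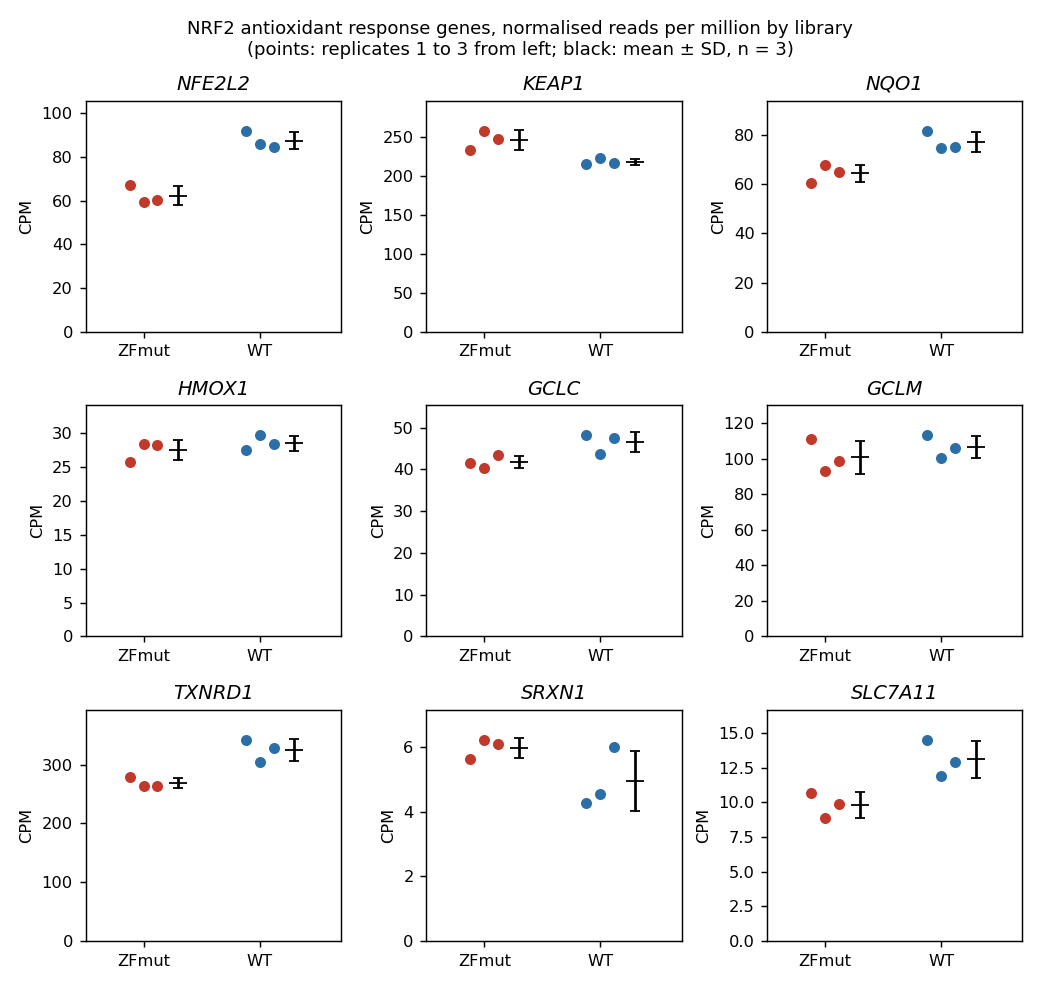
CPM of each gene (y axis, linear from 0) in the 3 ZFmut libraries (red, left) and the 3 WT libraries (blue, right), with mean ± SD in black. NFE2L2, NQO1, TXNRD1 and SLC7A11 lay lower in every ZFmut library than in any WT library, KEAP1 lay higher, and the GCLC groups were also apart, at 40.4 to 43.4 CPM with ZFmut and 43.7 to 48.1 CPM with WT. The share of all tested genes whose groups were apart was not counted, so separation here and below has no background beside it.

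NFE2L2 (ENSG00000116044.15, GRCh38 chromosome 2, 177227595 to 177392697, minus strand) was at 67.2, 59.5 and 60.2 CPM in ZFmut replicates 1 to 3, against 92.0, 86.2 and 84.5 CPM in WT replicates 1 to 3. All ZFmut libraries lay below all WT libraries, with a gap wider than the spread within either group. The means were 62.3 ± 4.27 CPM with ZFmut and 87.6 ± 3.95 CPM with WT (SD, n = 3 each), a log2 change of -0.49 ± 0.06 (SE, edgeR adjusted p = 1.65e-05). The call held in all 17 alternative fits, with differences from -0.53 to -0.38 (adjusted p from 1.12e-12 to 0.000552). Of its exonic sequence 17.63% overlaps AC019080.1 on the same strand, a gene at 2.67 to 3.12 CPM with ZFmut and 3.58 to 3.84 CPM with WT, and 4.08% overlaps AGPS and AC079305.1 on the other strand. Reads that fit more than 1 gene are outside these counts; whether those in the other-strand stretches are among them depends on the strand setting, which is not given in the sources used here. AGPS, the neighbouring gene of ether lipid synthesis, was lower as well, at 345, 305 and 315 CPM in ZFmut replicates and 419, 373 and 386 CPM in WT replicates (-0.29 ± 0.06, edgeR adjusted p = 0.00188).

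KEAP1 (ENSG00000079999.13, chromosome 19, 10486120 to 10503741, minus strand), the adaptor that recruits NRF2 to the CUL3 ligase, was at 233, 258 and 248 CPM in ZFmut replicates 1 to 3 and 216, 223 and 217 CPM in WT replicates. The groups did not overlap, but ZFmut replicate 1 lay closer to the WT libraries than to ZFmut replicate 2. The means were 246 ± 12.8 CPM with ZFmut and 219 ± 3.69 CPM with WT, a log2 change of 0.17 ± 0.05 (SE, edgeR adjusted p = 0.0216). The call ended in 4 fits that left out 1 library, namely ZFmut replicate 2 (0.14, edgeR adjusted p = 0.0572), ZFmut replicate 3 (0.17, 0.0661), WT replicate 1 (0.17, 0.0627) or WT replicate 3 (0.16, 0.0937). It also ended when each library's trend with GC content and exon length was removed (0.04, edgeR adjusted p = 0.516).

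SLC7A11 (ENSG00000151012.13, chromosome 4, 138164097 to 138242349, minus strand) encodes xCT, the light chain of the antiporter that imports cystine for glutathione synthesis. It was at 10.7, 8.84 and 9.86 CPM in ZFmut replicates 1 to 3, against 14.5, 11.9 and 12.9 CPM in WT replicates. Every ZFmut library lay below every WT library. The means were 9.80 ± 0.933 CPM with ZFmut and 13.1 ± 1.35 CPM with WT, a log2 change of -0.41 ± 0.10 (SE, edgeR adjusted p = 0.00390). The call held in all 17 alternatives, but the difference shrank to -0.20 (edgeR adjusted p = 0.0332) after removal of the GC and length trends. The exons of the antisense gene SLC7A11-AS1 cover 8.97% of its exonic sequence; that gene was at 0.0834 to 0.312 CPM with ZFmut and 0.138 to 0.380 CPM with WT.

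GCLC and GCLM encode the catalytic and the modifier subunit of glutamate-cysteine ligase, which carries out the rate-limiting step of glutathione synthesis, and neither passed the test. GCLC (ENSG00000001084.10, chromosome 6, 53497341 to 53616970, minus strand) was at 41.5, 40.4 and 43.4 CPM in ZFmut replicates 1 to 3 and 48.1, 43.7 and 47.5 CPM in WT replicates. The groups were apart by a gap narrower than the spread within each. The log2 difference was -0.15 ± 0.06 (SE, 95% interval -0.28 to -0.02, edgeR adjusted p = 0.0706). Without WT replicate 2 it was -0.19 and passed (edgeR adjusted p = 0.0463), and after removal of the GC and length trends it was -0.02 (0.817). GCLM (ENSG00000023909.9, chromosome 1, 93885205 to 93909456, minus strand) was at 111, 92.8 and 98.8 CPM in ZFmut replicates and 113, 100.3 and 106 CPM in WT replicates. These groups overlapped, and replicate 1 was the highest in each. The log2 difference was -0.08 ± 0.07 (95% interval -0.22 to 0.06, edgeR adjusted p = 0.394), and it turned to 0.07 after removal of the GC and length trends (0.197).

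TXNRD1 (ENSG00000198431.15, chromosome 12, 104215779 to 104350305, plus strand), cytosolic thioredoxin reductase, was the most abundant of the 9 transcripts by reads. It was at 279, 263 and 264 CPM in ZFmut replicates 1 to 3, against 342, 305 and 328 CPM in WT replicates, and the groups did not overlap. The means were 269 ± 8.68 CPM with ZFmut and 325 ± 19.0 CPM with WT, a log2 change of -0.27 ± 0.06 (SE, edgeR adjusted p = 0.00150). The call held in all 17 alternatives, with a difference of -0.17 after removal of the GC and length trends (edgeR adjusted p = 0.00306).

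SRXN1 (ENSG00000271303.1, chromosome 20, 646615 to 653370, minus strand), sulfiredoxin, restores overoxidised peroxiredoxins. It was at 5.62, 6.22 and 6.09 CPM in ZFmut replicates 1 to 3 and 4.28, 4.56 and 6.01 CPM in WT replicates. WT replicate 3 lay among the ZFmut libraries, so the groups overlapped. The log2 difference of 0.28 ± 0.13 did not pass (SE, 95% interval 0.01 to 0.56, edgeR adjusted p = 0.0982), whereas without WT replicate 3 it was 0.43 and passed (0.0194). Its value is uncertain, because 84.95% of its exonic sequence overlaps AL121758.1 on the same strand and reads there fit both genes. The counts of SRXN1 were 126, 149 and 620 reads in ZFmut replicates and 124, 259 and 190 reads in WT replicates.

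NQO1 (ENSG00000181019.12, chromosome 16, 69706996 to 69726951, minus strand), a quinone reductase widely used as a readout of NRF2 activity, was at 60.6, 67.6 and 64.9 CPM in ZFmut replicates 1 to 3, against 81.6, 74.5 and 75.0 CPM in WT replicates. Each ZFmut library lay below each WT library. The means were 64.4 ± 3.50 CPM with ZFmut and 77.0 ± 4.00 CPM with WT, a log2 change of -0.26 ± 0.06 (SE, edgeR adjusted p = 0.00297). The call held in all 17 alternatives, with differences from -0.29 to -0.19 (adjusted p from 1.81e-05 to 0.0182). AC092115.2, which overlaps 17.67% of its exonic sequence on the other strand, had 0 reads in every library.

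HMOX1 (ENSG00000100292.16, chromosome 22, 35380361 to 35394214, plus strand), haem oxygenase 1, was at 25.8, 28.5 and 28.3 CPM in ZFmut replicates 1 to 3 and 27.5, 29.7 and 28.5 CPM in WT replicates. The groups overlapped. The means were 27.5 ± 1.51 CPM with ZFmut and 28.6 ± 1.09 CPM with WT, a log2 change of -0.05 ± 0.07 (SE, 95% interval -0.19 to 0.09, edgeR adjusted p = 0.584). After removal of the GC and length trends HMOX1 was lower by this test, at -0.17 (edgeR adjusted p = 0.0126).

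Per exon length, as CPM divided by exon length in kilobases (RPKM), KEAP1 was the highest of the 9, at 65.5 ± 3.41 RPKM with ZFmut and 58.2 ± 0.981 RPKM with WT. TXNRD1 followed at 40.1 ± 1.29 RPKM with ZFmut and 48.5 ± 2.83 RPKM with WT. NQO1, at 19.8 ± 1.08 RPKM with ZFmut and 23.7 ± 1.23 RPKM with WT, came next. GCLM, at 18.6 ± 1.72 RPKM with ZFmut and 19.7 ± 1.19 RPKM with WT, differed from NQO1 by less than the spread in ZFmut libraries and by more than it in WT libraries. HMOX1 was at 11.4 ± 0.627 RPKM with ZFmut and 11.9 ± 0.453 RPKM with WT. NFE2L2 was at 10.4 ± 0.714 RPKM with ZFmut and 14.6 ± 0.660 RPKM with WT. The means of HMOX1 and NFE2L2 stood in opposite orders in the ZFmut and the WT group, but not every ZFmut library followed the order of its group means. GCLC was at 4.83 ± 0.174 RPKM with ZFmut and 5.37 ± 0.274 RPKM with WT. SRXN1 was at 2.21 ± 0.116 RPKM with ZFmut and 1.84 ± 0.345 RPKM with WT, a level that the overlap with AL121758.1 can lower. SLC7A11 was the lowest, at 1.02 ± 0.0967 RPKM with ZFmut and 1.36 ± 0.140 RPKM with WT.

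Ratios of these levels within a library do not depend on its depth or scaling, but they keep its trends with GC content and length. NFE2L2 per KEAP1 was 0.182, 0.145 and 0.153 in ZFmut replicates 1 to 3, against 0.268, 0.243 and 0.245 in WT replicates, a log2 difference of -0.66. The groups were apart, with a two-sided exact permutation p = 0.1, the smallest that 3 against 3 libraries can give. That separation follows from the single genes, which were apart in opposite directions, so this ratio adds no separate evidence. The xCT light chain SLC7A11 per its heavy chain SLC3A2 was 0.0405, 0.0296 and 0.0344 in ZFmut replicates and 0.0655, 0.0503 and 0.0554 in WT replicates (log2 difference -0.72, exact permutation p = 0.1). Transcripts of the reductase TXNRD1 per its substrate TXN were at 0.242, 0.260 and 0.245 in ZFmut replicates and 0.304, 0.305 and 0.312 in WT replicates (log2 difference -0.30, exact permutation p = 0.1). Both of these ratios were lower in every ZFmut library than in any WT library. For SLC7A11 per SLC3A2 this too follows from the single genes, which were apart in opposite directions. The differences of the single genes were closer together once the GC and length trends were removed, at -0.38 for NFE2L2 and 0.04 for KEAP1, and at -0.20 for SLC7A11 and 0.24 for SLC3A2. For the 2 subunits of glutamate-cysteine ligase the groups overlapped, with GCLM per GCLC at 4.27, 3.67 and 3.63 in ZFmut replicates and 3.75, 3.66 and 3.57 in WT replicates (log2 difference 0.07, exact permutation p = 0.6), and ZFmut replicate 1 stood above the other libraries. BACH1, a repressor that competes with NRF2 for antioxidant response elements, stood per NFE2L2 at 0.739, 0.742 and 0.724 in ZFmut replicates and 0.588, 0.567 and 0.591 in WT replicates (log2 difference 0.34, exact permutation p = 0.1). This higher ratio is not a rise of BACH1, which was at -0.16 and not called (edgeR adjusted p = 0.0649), while NFE2L2 was at -0.49. The 6 ratios computed, with NQO1 per HMOX1 at -0.20 (exact permutation p = 0.1) among them, cannot pass a threshold of 0.05 in this design, and adjustment over them cannot lower any p. With the GC and length trends removed, the single genes of that pair were close together, at -0.19 for NQO1 and -0.17 for HMOX1.

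Across the tested genes with a mean of at least 1 CPM, split into quintiles of 3034 or 3035 genes, the difference between the groups moved with GC content. In the quintile of genes with the lowest GC content (27.8 to 42.2%) the median log2 difference was -0.11, with 4.25% higher and 30.2% lower. In the quintile with the highest (58.5 to 83.9%) it was 0.15, with 37.8% higher and 11.5% lower. ZFmut replicate 1 and WT replicate 1 each stood apart from the rest of their group along this trend. Relative to the average of all libraries, genes in the lowest quintile had a median of 0.044, -0.140 and -0.079 in ZFmut replicates 1 to 3 and 0.111, 0.024 and 0.049 in WT replicates. The transcripts of the 4 genes that fell had GC contents of 43.4% (NFE2L2), 47.1% (NQO1), 45.1% (TXNRD1) and 35.9% (SLC7A11), and KEAP1 was at 61.3%. SLC7A11 thus lay in the lowest quintile. NFE2L2 and TXNRD1 lay in the next (42.2 to 46.7%), where 8.6% of genes were higher and 27.3% lower. NQO1 lay in the middle quintile (46.7 to 52.3%), where 18% were higher and 19.6% lower. HMOX1, at 60.2%, lay beside KEAP1 in GC content, and its difference of -0.05 stood below the median of its quintile. With the GC and length trends removed, 5 of the 9 genes were lower (NFE2L2, NQO1, HMOX1, TXNRD1 and SLC7A11) and 0 were higher, with SRXN1 at 0.24 (edgeR adjusted p = 0.104) and KEAP1 at 0.04. Among all tested genes 4501 were then higher and 3238 lower, a share of 58.2% higher among the calls in place of 48.2%.

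**Figure D2:**
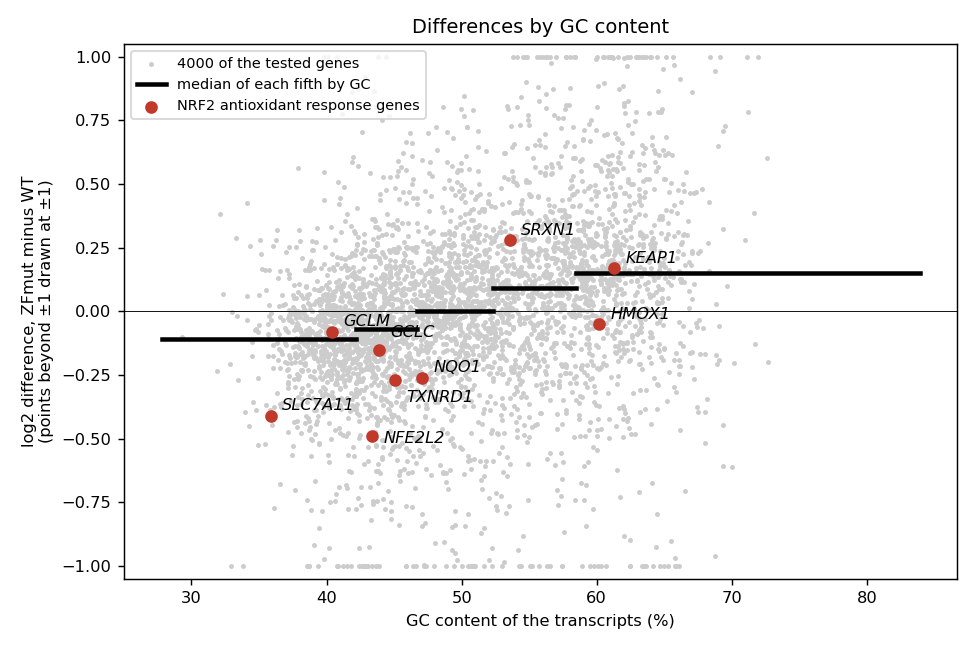
Log2 difference, ZFmut minus WT (y axis), against the GC content of each gene's transcripts in percent (x axis), with the 9 genes in red, a random draw of tested genes with a mean of at least 1 CPM in grey and the median of each quintile by GC content as a black bar. The bars climb from -0.11 to 0.15, and NFE2L2 at -0.49 and SLC7A11 at -0.41 lie farthest below them among the 9 genes.

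**Figure D3:**
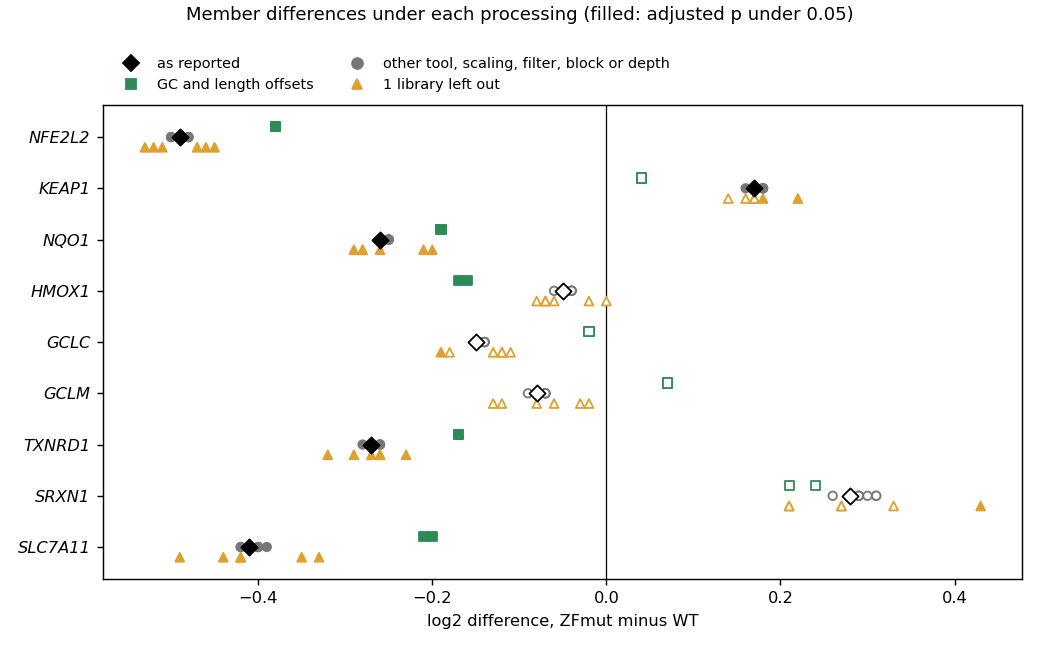
Log2 difference of each gene, ZFmut minus WT (x axis), as reported (black diamonds) and in the 17 alternative fits (green squares with the GC and length trends removed, grey circles for other tools, scalings, filters, block or depth, yellow triangles with 1 library left out); filled symbols have an adjusted p under 0.05. NFE2L2, NQO1, TXNRD1 and SLC7A11 stay left of 0 and filled throughout, while the KEAP1 squares move to 0.04 and are open.

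Other genes around NRF2 were followed in 7 lists with 75 genes, 72 of them tested. Of these 21 were higher, 16 were lower and 35 were not called (median 0.02), against 17.2% higher and 18.4% lower among all tested genes. Up to 4 called genes in each direction are named from each list, in order of p. For genes named by this rule, a difference that moved by over 1.5 times or a call that ended in another fit is given beside it; genes named outside the rule were not followed across fits.

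Among 12 partners, competitors and turnover factors of NRF2, 6 were lower and 1 was higher, with a median of -0.17. BACH2, a repressor related to BACH1, fell most, to 5.09, 5.47 and 5.03 CPM in ZFmut replicates 1 to 3, against 11.9, 11.4 and 12.1 CPM in WT replicates, a 2.28-fold difference (log2 -1.19 ± 0.09, edgeR adjusted p = 1.67e-07). The small MAF proteins, which pair with NRF2 and with its competitors, were lower too. MAFK was at 75.2 ± 3.97 CPM with ZFmut and 98.4 ± 1.92 CPM with WT (-0.39 ± 0.05, edgeR adjusted p = 5.41e-05), and MAFF at 27.1 ± 0.933 CPM with ZFmut and 35.1 ± 1.56 CPM with WT (-0.37 ± 0.06, 0.000344). MAFG, named after its value was seen because it completes the trio, was lower by a smaller amount (-0.19 ± 0.05, edgeR adjusted p = 0.00661). NFE2L1, the relative of NRF2 that induces proteasome genes, was at 229 ± 9.49 CPM with ZFmut and 288 ± 5.94 CPM with WT (-0.33 ± 0.05, edgeR adjusted p = 0.000181). The member that rose was SQSTM1, the autophagy receptor p62, which sequesters KEAP1. It was at 703, 799 and 774 CPM in ZFmut replicates and 517, 539 and 536 CPM in WT replicates (log2 0.52 ± 0.05, edgeR adjusted p = 5.47e-06), and 22.04% of its exonic sequence overlaps genes on the other strand. BACH1 (-0.16, edgeR adjusted p = 0.0649) and CUL3 (-0.08, 0.252) were among the 5 that were not called. With the GC and length trends removed, 2 of the 12 were higher and 5 lower. Of all 18683 tested genes 4501 were then higher and 3238 lower.

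Glutathione genes went in both directions. Of 16 that act in glutathione synthesis, use and export, 6 were higher, 2 were lower and 8 were not called (median 0.05). The glutathione transferases GSTP1, at 347 ± 38.8 CPM with ZFmut and 247 ± 13.7 CPM with WT (log2 0.49 ± 0.07, edgeR adjusted p = 0.000115), and MGST1 (0.23 ± 0.05, 0.00270; 0.40 after removal of the GC and length trends) were higher. The conjugate exporter ABCC3 (0.37 ± 0.06, edgeR adjusted p = 0.000229) and SLC3A2, at 152 ± 9.49 CPM with ZFmut and 124 ± 3.93 CPM with WT (0.30 ± 0.06, 0.000910), were higher as well. ABCC2, another exporter of glutathione conjugates, fell the most of all 72, to 1.52, 1.25 and 1.32 CPM in ZFmut replicates, against 18.0, 12.3 and 17.5 CPM in WT replicates, an 11.7-fold difference (log2 -3.55 ± 0.17, edgeR adjusted p = 1.40e-09). Glutathione reductase, GSR, was at 82.1 ± 1.72 CPM with ZFmut and 103 ± 3.82 CPM with WT (-0.33 ± 0.05, edgeR adjusted p = 0.000156). With the GC and length trends removed, 4 of the 16 were lower in place of 2, against 3238 of all 18683 tested genes.

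In the thioredoxin and peroxiredoxin list of 11 genes, 3 were higher, 1 was lower and 7 were not called (median 0.11). The mitochondrial reductase TXNRD2 was higher, at 49.3 ± 1.60 CPM with ZFmut and 41.0 ± 1.83 CPM with WT (log2 0.27 ± 0.06, edgeR adjusted p = 0.00232), whereas cytosolic TXNRD1 was lower. PRDX2, a cytosolic peroxiredoxin, was higher (0.34 ± 0.07, edgeR adjusted p = 0.00257). PRDX6 was higher by 0.15 ± 0.05 (edgeR adjusted p = 0.0330; 0.23 after removal of the GC and length trends), a call that ended without ZFmut replicate 2 or without WT replicate 1, 2 or 3 (0.0554 to 0.140). Glutaredoxin, GLRX, was lower (-0.34 ± 0.09, edgeR adjusted p = 0.00980), but not without ZFmut replicate 3 (-0.27, 0.0886), and it was at -0.25 with the GC and length trends removed, or -0.22 with the replicate block as well. Thioredoxin itself, TXN, was at 0.03 (edgeR adjusted p = 0.754). With the GC and length trends removed, 7 of the 11 were higher, against 4501 of all 18683 tested genes.

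NADPH is the reductant for NQO1, GSR and TXNRD1. Of 5 genes listed for its supply, 1 was higher, 1 was lower and 3 were not called (median 0.00). Those not called, PGD (-0.06, edgeR adjusted p = 0.384), ME1 (0.05, 0.562) and IDH1 (0.00, 0.979), encode enzymes that make NADPH. The called genes, TKT and TALDO1, encode enzymes that do not make it themselves. Transketolase, TKT, of the pentose phosphate pathway, was higher, at 612 ± 51.2 CPM with ZFmut and 489 ± 27.0 CPM with WT (0.32 ± 0.06, edgeR adjusted p = 0.00120). Transaldolase, TALDO1, was lower (-0.19 ± 0.06, edgeR adjusted p = 0.0310), a call lost without ZFmut replicate 1 (-0.12) or 3 or any 1 of the WT replicates (0.0694 to 0.127). With the GC and length trends removed, 3 of the 5 were higher, against 4501 of all 18683 tested genes.

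In the haem and iron list of 7 genes, 4 were higher and 0 were lower, with a median of 0.39; HMOX1 is not in this list. The count of 0 by edgeR was also 0 at an unadjusted p under 0.05, with DESeq2 and with limma-voom, and BLVRB, FECH and HMOX2, which were not called, were at 0.05, 0.02 and 0.10. The ferritin light chain FTL was at 611, 774 and 662 CPM in ZFmut replicates 1 to 3 and 389, 431 and 414 CPM in WT replicates, a 1.66-fold difference (log2 0.73 ± 0.07, edgeR adjusted p = 3.51e-06). The ferritin heavy chain FTH1 was at 284, 352 and 358 CPM in ZFmut replicates and 174, 221 and 207 CPM in WT replicates (0.72 ± 0.09, edgeR adjusted p = 2.56e-05). Both are uncertain, since ferritin genes have processed pseudogenes and 62.41% of the exonic sequence of FTH1 overlaps BEST1 on the other strand. Biliverdin reductase, BLVRA, which acts on the product of HMOX1, was higher (0.39 ± 0.05, edgeR adjusted p = 5.18e-05). Ferroportin, SLC40A1, the cellular iron exporter, was higher at 4.49 ± 0.562 CPM with ZFmut and 3.16 ± 0.470 CPM with WT (0.50 ± 0.14, edgeR adjusted p = 0.0122), but not without WT replicate 2 (0.41, 0.0668).

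Of 16 genes listed under quinone, aldehyde and carbonyl detoxification, 13 were tested, with 2 higher, 4 lower and 7 not called (median -0.05). The list also holds PIR, OSGIN1 and TRIM16L, so its counts are not counts of detoxifying enzymes alone. The aldo-keto reductase AKR1B10 fell to 0.825 ± 0.187 CPM with ZFmut, against 2.09 ± 0.124 CPM with WT, a 2.82-fold difference (log2 -1.49 ± 0.20, edgeR adjusted p = 5.56e-05). PTGR1, which reduces unsaturated ketones and aldehydes, was lower (-0.34 ± 0.06, edgeR adjusted p = 0.000265), and so was PIR, an iron-binding nuclear protein (-0.31 ± 0.06, 0.000661). OSGIN1, a growth inhibitor induced by oxidative stress, was lower (-0.37 ± 0.12, edgeR adjusted p = 0.0228), a call lost after thinning to the smallest library and without ZFmut replicate 1 or WT replicate 2 or 3 (0.0511 to 0.0978). AKR1B1, aldose reductase and a relative of AKR1B10, was higher (0.17 ± 0.05, edgeR adjusted p = 0.0160; 0.11 after removal of the GC and length trends), a call lost without ZFmut replicate 3 or WT replicate 2 or 3 (0.0532 to 0.0829). TRIM16L was higher (0.23 ± 0.06, edgeR adjusted p = 0.00507).

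Among 8 genes that remove superoxide and hydrogen peroxide, 4 were higher, 2 were lower and 2 were not called (median 0.15). GPX3, a secreted glutathione peroxidase, had the largest rise of the 72 genes. It was at 163, 173 and 165 CPM in ZFmut replicates 1 to 3 and 47.9, 51.0 and 47.9 CPM in WT replicates, a 3.41-fold difference (log2 1.77 ± 0.05, edgeR adjusted p = 1.96e-11). GPX7, a peroxidase of the endoplasmic reticulum, was higher (0.62 ± 0.13, edgeR adjusted p = 0.00145), and so was cytosolic GPX1 (0.38 ± 0.08, 0.00230). Catalase, CAT, was higher (0.21 ± 0.06, edgeR adjusted p = 0.00952), but not without WT replicate 3 (0.20, 0.0551). Of the superoxide dismutases, SOD1 and SOD2 were lower, and SOD3, which is secreted, was not called (-0.16, edgeR adjusted p = 0.480). SOD2, of mitochondria, was at 161 ± 4.31 CPM with ZFmut and 184 ± 6.89 CPM with WT (-0.20 ± 0.05, edgeR adjusted p = 0.00934), a call lost after removal of the GC and length trends (-0.05, 0.473) and without ZFmut replicate 3 (0.0503) or WT replicate 3 (0.0729). SOD1, of the cytosol, was at 215 ± 8.32 CPM with ZFmut and 244 ± 6.94 CPM with WT (-0.18 ± 0.05, edgeR adjusted p = 0.0151), a call lost without ZFmut replicate 3 (0.0700) or WT replicate 1 (0.0976).

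**Figure D4:**
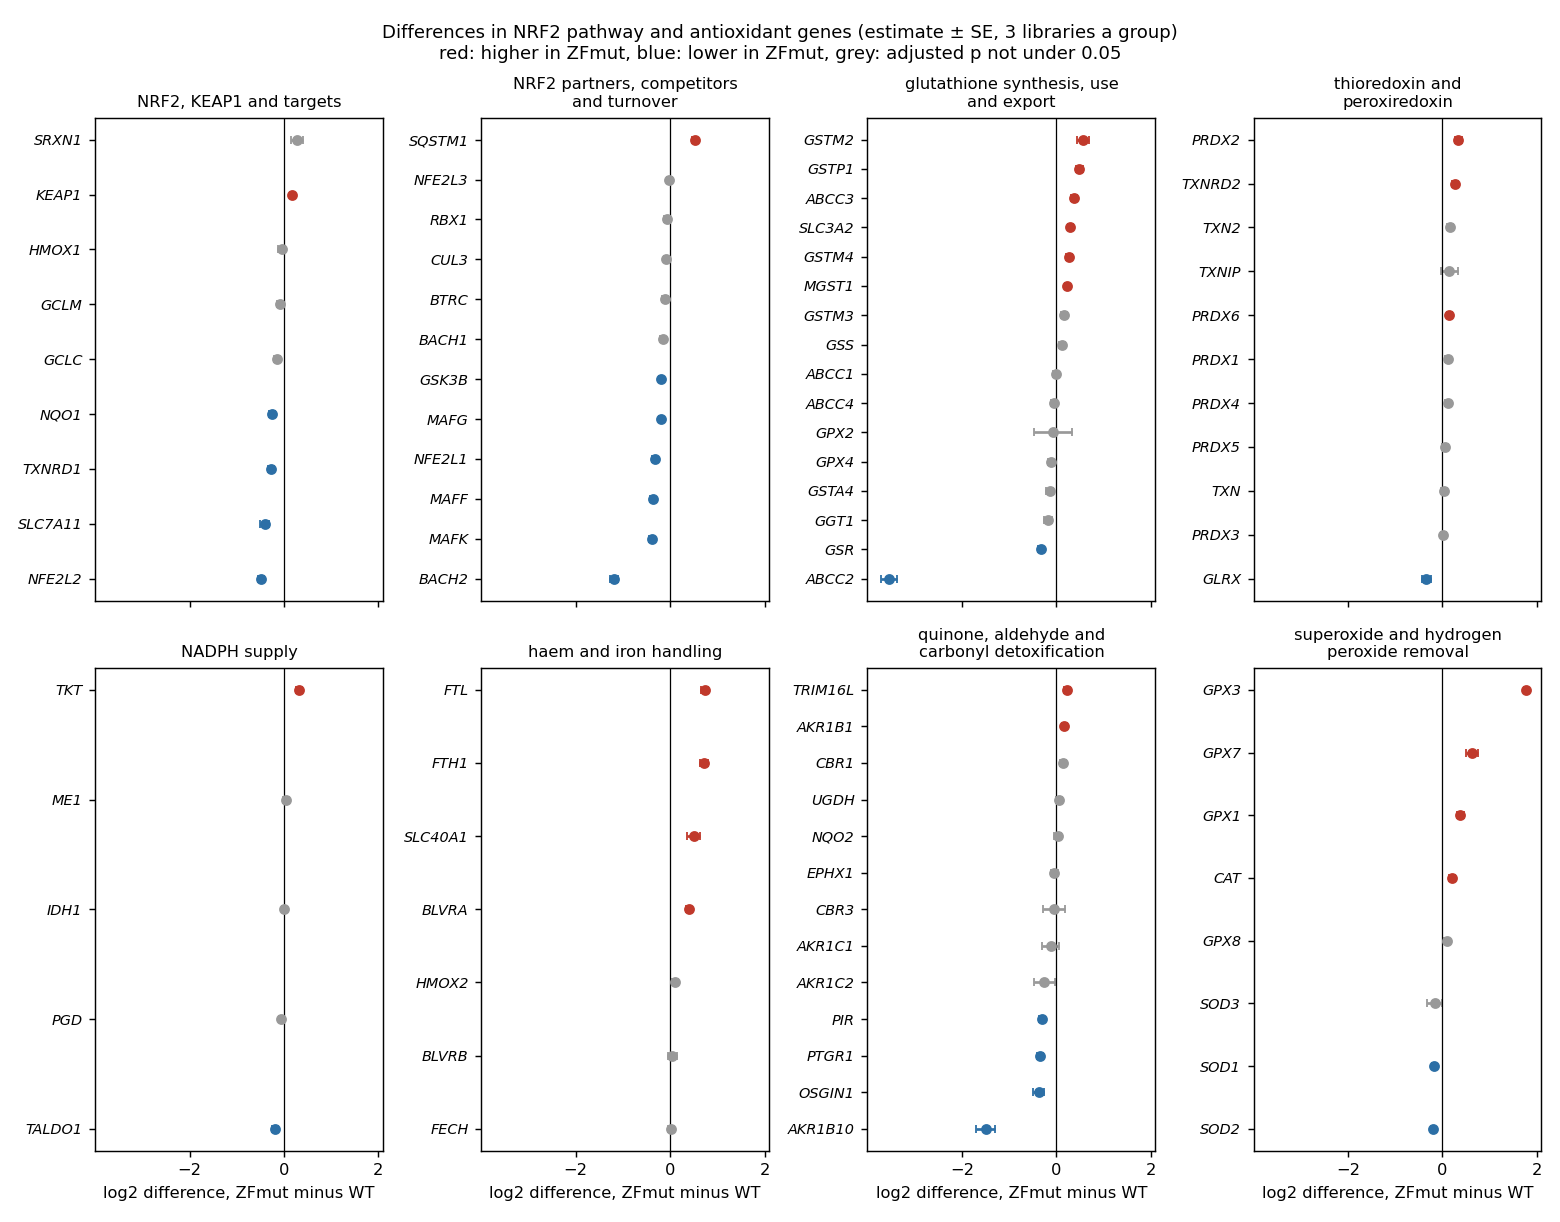
Log2 difference, ZFmut minus WT, ± SE (x axis) of each tested gene in the NRF2 group and in 7 lists of pathway and antioxidant genes, with genes higher in ZFmut in red, lower in ZFmut in blue and not called in grey. ABCC2 at -3.55 and GPX3 at 1.77 are the extremes, and the haem and iron list has 4 red genes and 0 blue ones.

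The genes whose pattern over the 6 libraries lay closest to a called gene were sought among 9981 protein-coding genes with a mean of at least 10 CPM, by the root mean square distance between centred log2 levels. For NFE2L2 these were RNF19A at a distance of 0.0142, SHTN1 at 0.0194 and BAZ1A at 0.0272. TXNRD1 had MED17 (0.00875), HDAC2 (0.0146) and PDCL (0.0157) nearest, and NQO1 had BAIAP2L1 (0.0190), NDUFA1 (0.0232) and FYN (0.0253). For SLC7A11 they were KIAA1841 (0.0215), ANKRD12 (0.0268) and TGFB2 (0.0282). KEAP1 had COX10 (0.0149), SRA1 (0.0150) and ARFGAP2 (0.0155) nearest. For these 5 called genes, none of the 3 nearest was another of the 9. With 3 taken from 9981 candidates, that absence cannot show whether the 9 share a pattern. SRXN1, below 10 CPM, was not a candidate. These distances describe 6 libraries that share their depth and GC trends.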

How the data were processed

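Total RNA of 6 Daoy cell libraries was profiled. The authors deposited whole-number read counts per Ensembl gene, not normalized. The submitters' processing notes name GRCh38 and, in no order, the tools cutadapt, TopHat2 (2.0.9), HTSeq and DESeq2. Which annotation release and strand setting the counting used is not given in the sources used here, and the library kit in the labels does not mark strand. The 5 closing lines of each file hold no gene and were left out of totals and tests; they put 7.71 to 8.08% of reads on more than 1 gene, 5.04 to 6.56% outside genes and 16.1 to 19.4% at several places, so paralogs, pseudogenes and overlapping genes lose reads. GENCODE 29 gave symbols, positions, exon lengths and GC content for 56996 (94.1%) of 60554 identifiers.

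Differences are ZFmut minus WT by the two-sided quasi-likelihood F test of edgeR 4.0.16 (R 4.3.3) with TMM, filterByExpr and no covariates, adjusted by Benjamini-Hochberg over 18683 genes at 0.05. The biological coefficient of variation was 6.27%. Counting error alone limits precision for genes of few reads such as SRXN1. By chi-square tests of their counts, all pairs of libraries within a group differed beyond sampling noise. The procedure was tested on simulated data with the same dispersion for every gene and no GC or length trend. That test therefore cannot show how the fits handle such trends. Alternatives were RLE and upper-quartile scaling, DESeq2 1.42.0, limma-voom (limma 3.58.1), no filter, a filter of 5 CPM in 3 libraries, ZBTB7B left out, the replicate number as a block, GC and length trends per library (loess, span 0.5) as offsets without and with that block, thinning to the smallest total, and each library left out. The genes and lists were chosen with earlier results of these data known, and 1 gene of the lists is not reported here. The genes named are all 9, ZBTB7B, and from each other list up to 4 called genes a direction in order of p; other names, such as MAFG, BACH1, CUL3, TXN and AGPS, were chosen after their values were seen.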

Additional observations from a re-analysis of the deposited data

How the results depend on the processing

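Over 17 alternatives and 43 genes, 688 of 727 values kept their direction and their side of the threshold, 31 lost the call, 5 gained it and 3 changed sign. Most of these genes were named because they were called with low p, so a high share of kept calls follows in part from that choice. The fit without ZBTB7B left out only its own row and could change little. The calls of NFE2L2, NQO1, TXNRD1 and SLC7A11 held in all 17. With the GC and length trends removed, without and with the replicate block, the number of the 9 genes that were higher was 0, GCLM turned to 0.07 and HMOX1 passed as lower; with 1 library left out HMOX1 ranged from -0.08 to 0.00, where 0.00 is the value without ZFmut replicate 1 (edgeR adjusted p = 0.990). With 1 library left out, 0 to 1 of the 9 genes were higher and 4 to 5 lower, 2266 to 3934 of all genes were higher and 2504 to 3782 lower, and of the other pathway genes 18 to 23 were higher and 12 to 17 lower. With the offsets 58.2% of all calls were higher, or 58.7% with the replicate block as well, in place of 48.2%. With the replicate block alone 5 of the 9 genes were lower (GCLC at -0.15, edgeR adjusted p = 0.00744), 4226 of all genes were higher and 4466 lower, 4 glutathione genes were lower in place of 2, and 6 thioredoxin and peroxiredoxin genes were higher in place of 3. The deviations of same-numbered libraries correlated at 0.164, 0.0770 and 0.0635, and each library correlated best with its own number, a hint from the data and not from the design, so the numbers were not taken as pairs. AKR1B10, SLC40A1 and GPX7 were not tested under the filter of 5 CPM. The cause of each change was not tested. Depth limits genes of few reads such as AKR1B10, with 22, 21 and 63 reads in ZFmut replicates 1 to 3 and 57, 126 and 66 reads in WT replicates.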

Other observations

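Of the 16 genes listed under quinone, aldehyde and carbonyl detoxification, 3 had too few reads to be tested. AKR1C3, an aldo-keto reductase known as an NRF2 target, had 1, 3 and 6 reads in ZFmut replicates 1 to 3 and 4, 0 and 0 reads in WT replicates, and its reads can be shared with close paralogs. ALDH3A1, an aldehyde dehydrogenase, had 3, 10 and 11 reads in ZFmut replicates and 6, 7 and 1 reads in WT replicates. UGT1A6, a glucuronosyltransferase, had 0 reads in all 6 libraries, and its exons overlap those of other UGT1A genes, whose shared reads are outside the counts.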
